A study of Danio rerio with 10 samples.

Results

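The genes described here encode the enzymes of the methionine cycle and of transsulfuration in the skeletal muscle of adult zebrafish. They were chosen by gene name as *mat1a*, *mat2aa*, *mat2ab*, *mat2b*, *gnmt*, *ahcy*, *mtr*, *cbsa*, *cbsb* and *cth*, and all 10 were found among the 17373 zebrafish genes of the authors' deposited table of induced torpor against control. The 5 genes paired one-to-one with a human gene (*mat1a*, *mat2b*, *gnmt*, *ahcy* and *mtr*) were also read in the deposited tables of radiation and of induced torpor+radiation, which list 9411 genes each. The other 5 were read in the torpor table only.

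Methionine adenosyltransferase joins methionine to ATP and forms S-adenosylmethionine (SAM), the methyl donor of most cellular methylation. Once its methyl group is passed on, the remaining S-adenosylhomocysteine is split into adenosine and homocysteine. Homocysteine is either methylated back to methionine, with a methyl group from folate or betaine, or led by transsulfuration to cysteine. Cysteine is a building block of glutathione and taurine. In mammals, *MAT1A* is the form of the liver and *MAT2A* that of most other tissues, skeletal muscle included.

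Muscle RNA came from the induced torpor+radiation group (3 fish, 18.5 °C, 24 µM melatonin, 32.64 cGy in the sample labels), the induced torpor group (2 fish, 18.5 °C, 24 µM melatonin, no radiation), the radiation group (3 fish, 28.5 °C, no melatonin, 32.64 cGy) and the control group (2 fish, 28.5 °C, neither treatment). All were AB fish, and the tissue was a section of dorsal muscle made mainly of fast twitch fibres. The experiment ran for 10 days, which followed cold acclimation in the groups at 18.5 °C only. Radiation was given in separate exposures on different days, and irradiated fish were anaesthetised with tricaine beforehand. The paper describes this anaesthesia for irradiated fish only, so its part cannot be told apart from that of radiation. Temperature and melatonin were changed together in both torpor groups, so that their parts cannot be told apart. The fish codes in the labels begin with M in 2 of 2 torpor and 2 of 3 torpor+radiation fish. They begin with F in 1 torpor+radiation fish and in all 5 fish at 28.5 °C, and the sources do not explain these letters. Whatever they stand for cannot be told apart from torpor in torpor over control. In torpor+radiation over radiation it is largely aligned with torpor as well.

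The deposited tables hold no value per fish. Each gene has a baseMean, its normalized count averaged across the 10 fish, and a log2 fold change of a treated group over the control with its standard error (SE). For the 5 genes listed in all 3 tables, these values fix a mean normalized count per group, called the recovered mean below. Library totals are therefore unknown here, and the spread among fish is seen only through the standard errors.

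One text field of the labels names liver as the source of the RNA, while the tissue is given as muscle. In these tables the fast muscle genes *ckmb* and *mylz3* had a baseMean of 419048 and 256394, while *mylpfb* and *tnnt3a* had 0.445 and 4.59. Of the 11 tested genes of this muscle list, 2 were called higher and 4 lower in torpor, with *ckmb* and *mylz3* among the lower. Among all genes tested, 6.14% were called higher and 4.82% lower. The median log2 fold change of the muscle list was -0.56. The 19 liver genes found had a baseMean of 0.0764 (*ttr*) to 33.1 (*tfa*) apart from *rbp4*, which had 5637. Among them, the fibrinogen genes *fgb* and *fgg* had 1.35 and 0.549, *c3a.1* had 14.3 and *hpxb* had 8.69. The 10 liver genes other than *rbp4* that all tables list summed to 39.1 recovered normalized counts in torpor+radiation, 60.9 in torpor, 76.7 in radiation and 18.3 in the control, of which *tfa* alone gave 24.9 in torpor+radiation, 48.5 in torpor, 45.3 in radiation and 11.6 in the control. A list of oocyte and ovarian follicle genes stood out in the control, with a summed recovered mean of 13.4 in torpor+radiation, 16.2 in torpor, 16.7 in radiation and 408 in the control over 11 genes. Most of this control sum came from *h1m*, with 260, and *zar1*, with 111. *amh*, *inha* and *cyp19a1a*, with a baseMean of 0.196 to 2.43, did not have their highest mean in the control. Of the 7 tested genes of the oocyte list 6 were called lower in torpor. Every fold change against the control is set against these same 2 control fish.

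In induced torpor, 3 of the 10 enzyme genes were higher and 0 were lower than in the control at an adjusted p of 0.1 or less, the threshold of the study for torpor. Among all 11529 genes tested, 11.0% were called in either direction, 6.14% higher and 4.82% lower. The 3 genes were *cbsa*, *mat1a* and *mat2b*, and they encode a copy of the enzyme that opens transsulfuration, the liver-type SAM synthetase and the regulatory subunit of the other SAM synthetase. The 10 genes had a median log2 fold change of 0.25, beside -0.0044 for all 10455 genes with a baseMean of at least 10. None of the 3 was called when a t distribution with 6 degrees of freedom replaced the normal one, a setting under which 0 of all 11529 genes were called while all 3 kept an unadjusted p under 0.05.

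**Figure D1:**
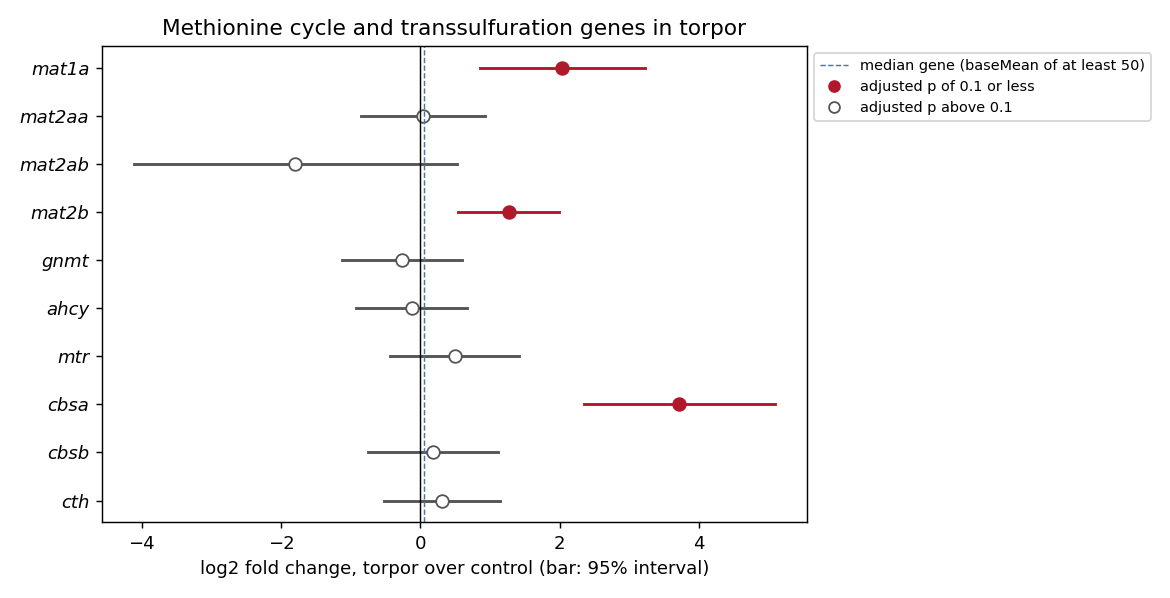
Log2 fold change of the 10 enzyme genes in torpor over control (horizontal axis) with 95% intervals as bars, in the order of the reactions. Filled points passed an adjusted p of 0.1. The intervals of *mat1a*, *mat2b* and *cbsa* lie above 0, those of the other 7 genes include 0, and the interval of *mat2ab* is the widest, at -4.11 to 0.53.

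Of the SAM synthetase genes, 2 passed the test. *mat1a* (ENSDARG00000039605) encodes the catalytic subunit that mammals use in liver. Its recovered mean was 56.2 normalized counts in torpor+radiation, 46.5 in torpor, 10.4 in radiation and 11.3 in the control. Both cold groups thus lay above both warm groups, and the ranges of 1 standard error around the cold means (45.2 to 69.8 and 35.5 to 60.9) did not meet those around the warm means (7.95 to 13.7 and 8.18 to 15.7). The log2 fold change in torpor over control was 2.04 (SE 0.60, 95% interval 0.85 to 3.22, adjusted p = 0.017 from the authors' DESeq2 Wald test), a 4.11-fold difference. In torpor+radiation over control it was 2.31 (SE 0.56, adjusted p = 0.0015, DESeq2).

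*mat2b* (ENSDARG00000012932) encodes the regulatory subunit, which in mammals binds the MAT2A enzyme and tunes its activity. It had a recovered mean of 139 normalized counts in torpor+radiation, 143 in torpor, 74.6 in radiation and 59.5 in the control. The order was torpor, torpor+radiation, radiation, control, and the step in it that passed a test was that between torpor+radiation and radiation. The log2 fold change in torpor over control was 1.27 (SE 0.37, 95% interval 0.54 to 1.996, adjusted p = 0.015, DESeq2), a 2.41-fold difference, and in torpor+radiation over control it was 1.23 (SE 0.34, adjusted p = 0.0076, DESeq2). In relative terms *mat1a* had the larger fold change of this pair and *mat2b* the smaller error.

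**Figure D2:**
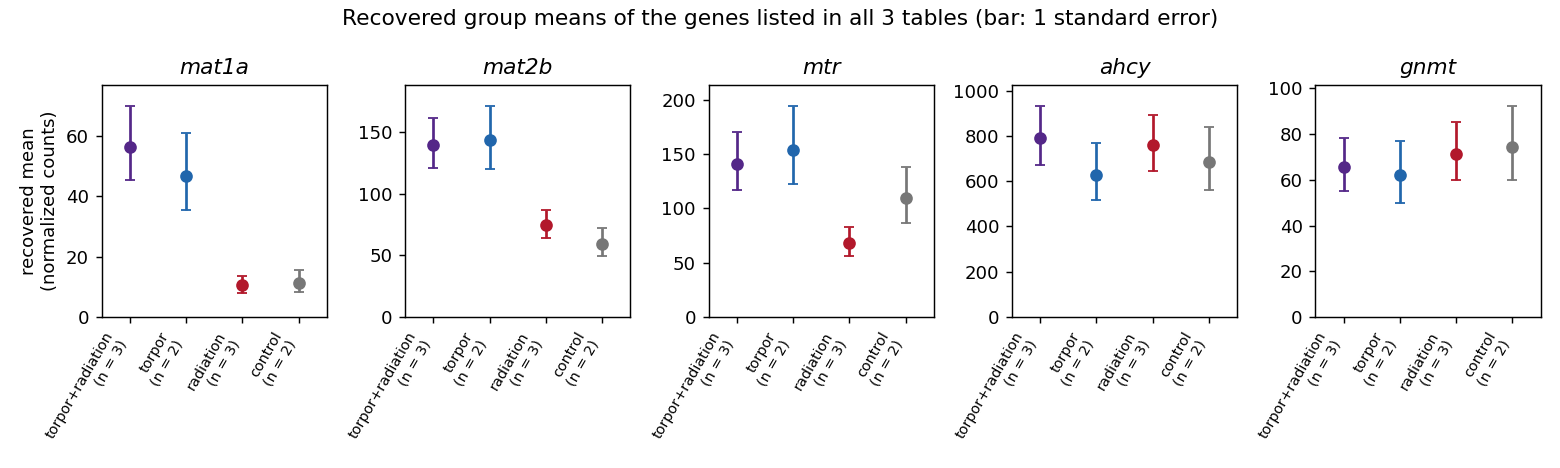
Recovered mean normalized count (vertical axis, from 0) of the 5 genes listed in all 3 tables in the 4 groups, with bars of 1 standard error from the recovered dispersion. *mat1a* and *mat2b* are higher in both groups at 18.5 °C than in both at 28.5 °C, *mtr* is lowest in the radiation group, and the means of *ahcy* and *gnmt* lie within 629 to 792 and 62.0 to 74.5.

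The catalytic partners of *mat2b* did not pass the test. *mat2aa* (ENSDARG00000040334) had a baseMean of 217 and a log2 fold change of 0.04 in torpor over control (SE 0.45, 95% interval -0.85 to 0.93). *mat2ab* (ENSDARG00000037121) had a baseMean of 166 and a log2 fold change of -1.79, with a standard error of 1.18 and a 95% interval of -4.11 to 0.53 (adjusted p = 0.41, DESeq2). That standard error was large for its level, since 24 of the 3244 genes with a baseMean within 2-fold of it, or 0.74%, had one at least as large, and their median was 0.39. A log2 fold change of 3.01 would have been needed for a call on *mat2ab*, against 1.16 on *mat2aa*. Beside every torpor over control value, the oocyte list had 16.2 in torpor and 408 in the control. Its part in the value of *mat2ab*, or in the calls of *cbsa*, *mat1a* and *mat2b*, was not tested. Nor was that of the liver genes other than *rbp4*, which summed to 60.9 in torpor, 18.3 in the control and 76.7 in radiation.

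**Figure D3:**
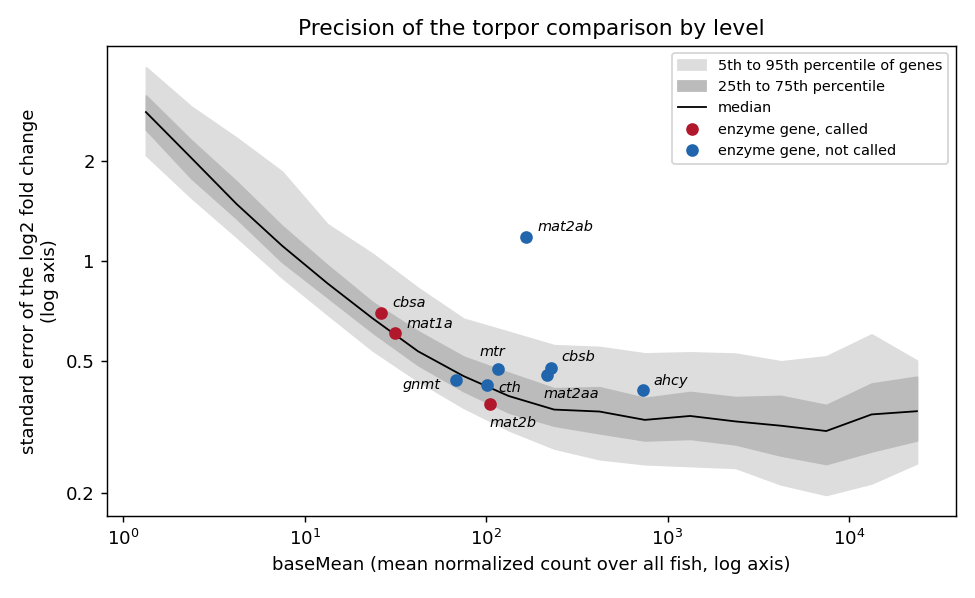
Standard error of the log2 fold change in torpor over control (vertical, log axis) against baseMean (horizontal, log axis). Shaded bands give the spread over all genes of similar level, points the 10 enzyme genes, red where called. *mat2ab* lies far above the band at a standard error of 1.18, and the other 9 genes lie within it, at 0.37 to 0.70.

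Neither *gnmt* nor *ahcy*, of SAM use and of the clearing of its product, passed the test. *gnmt* (ENSDARG00000006840) encodes glycine N-methyltransferase, which methylates glycine to sarcosine. Its recovered mean was 65.8 normalized counts in torpor+radiation, 62.0 in torpor, 71.5 in radiation and 74.5 in the control, and the ranges of 1 standard error of all 4 groups overlapped. Its log2 fold change in torpor over control was -0.26 (SE 0.44, 95% interval -1.13 to 0.60). *ahcy* (ENSDARG00000005191), the gene of the hydrolase that splits S-adenosylhomocysteine, had 792 normalized counts in torpor+radiation, 629 in torpor, 758 in radiation and 687 in the control, again with overlapping ranges. For *ahcy* the log2 fold change in torpor over control was -0.13 (SE 0.41, 95% interval -0.93 to 0.67). A call would have needed an estimated log2 fold change of 1.12 for *gnmt* and 1.04 for *ahcy*, so the absence of a call does not show that they were unchanged.

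The remethylation enzyme differed between irradiated groups. *mtr* (ENSDARG00000104906) encodes methionine synthase, the cobalamin-dependent enzyme that returns homocysteine to methionine. Its recovered mean was 141 normalized counts in torpor+radiation, 154 in torpor, 68.4 in radiation and 110 in the control, with the lowest mean in the radiation group. The log2 fold change over control was 0.49 in torpor (SE 0.47, adjusted p = 0.62, DESeq2), 0.36 in torpor+radiation (SE 0.43, adjusted p = 0.67, DESeq2) and -0.68 in radiation (SE 0.44, adjusted p = 0.99, DESeq2). None of these was called. The range of 1 standard error in radiation (56.2 to 83.2) lay below those of torpor+radiation, torpor and the control. That of the control (86.7 to 139) met those of both torpor groups. Such ranges are not a test.

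For transsulfuration, the 2 copies of cystathionine beta-synthase, which condenses homocysteine with serine, had unequal values. *cbsa* (ENSDARG00000053500) had the largest fold change of the 10 genes, with a log2 fold change of 3.71 in torpor over control (SE 0.70, 95% interval 2.35 to 5.08, adjusted p = 1.5e-05, DESeq2), which is 13.1-fold. It ranked 77 of 11529 genes by p, while *mat2b* ranked 475 and *mat1a* 498. Its baseMean over all fish was 26.5 normalized counts. With this baseMean, the torpor mean could be at most 123 and the control mean at most 9.38 normalized counts, and the standard error sets lower limits of 30.1 for torpor and 2.30 for the control, if library size factors were near 1. The levels of *cbsa* in the 2 irradiated groups were not analysed here.

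*cbsb* (ENSDARG00000010946) had a baseMean of 227 and a log2 fold change of 0.19 in torpor over control (SE 0.48, 95% interval -0.75 to 1.12). The log2 fold change of *cbsa* exceeded that of *cbsb* by 3.53, with a standard error of 0.85 and a 95% interval of 1.87 to 5.19 if both errors are taken as independent, which they need not be in the same fish. In the same way, *mat1a* exceeded *mat2aa* by 1.995 (95% interval 0.51 to 3.48), and *mat2aa* exceeded *mat2ab* by 1.83 (95% interval -0.65 to 4.32), an interval that includes 0. These differences are given as descriptions, since the pairs were chosen with the values known. Reads that match both copies of a duplicated gene may have been left out or split by the counting, so that values of *mat2aa*, *mat2ab*, *cbsa* and *cbsb* are less certain than those of single genes.

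*cth* (ENSDARG00000074301) encodes cystathionine gamma-lyase, which releases cysteine. It had a baseMean of 102 and a log2 fold change of 0.32 in torpor over control (SE 0.42, 95% interval -0.52 to 1.15). A second gene that the table pairs with human *CTH*, *cthl*, had -1.36 with a standard error of 2.66, which leaves its direction undetermined. Neither was called. The value of *cth* lay close to that of *cbsb*, the more abundant copy for the first step, and differences between the steps were not tested.

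To set torpor against a second baseline, the induced torpor+radiation group was compared with the radiation group, 6 fish of which none is a control or torpor fish. Only the fold changes are free of the control fish. The dispersion behind their errors and p-values was solved from the authors' fit, which includes the control. Of the 5 genes listed in all tables, 3 passed as higher and none as lower at the same threshold, where 16.1% of 6504 genes were called, 9.15% higher and 6.98% lower. *mat1a* was higher by a log2 fold change of 2.43 (SE 0.50, 95% interval 1.45 to 3.41, adjusted p = 7.3e-05 from the Wald test across all genes with Benjamini-Hochberg adjustment). *mat2b* was higher by 0.90 (SE 0.30, 95% interval 0.31 to 1.49, adjusted p = 0.030 from the same test). *mtr* was higher by 1.05 (SE 0.39, 95% interval 0.27 to 1.82, adjusted p = 0.061 from the same test). *ahcy* and *gnmt* lay at 0.06 and -0.12, with 95% intervals of -0.59 to 0.71 and -0.83 to 0.59.

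The sums of marker lists moved beside these calls, and their part in the values of *mat1a*, *mat2b* and *mtr* was not tested. The leukocyte list summed to 208 in torpor+radiation and 359 in radiation over 4 genes, all of them lower in torpor+radiation, and *lcp1* was called, at a log2 fold change of -1.01 (adjusted p = 0.020, Wald test across all genes). The oocyte list summed to 13.4 in torpor+radiation and 16.7 in radiation, with *h1m* at 3.48 in torpor+radiation and 8.83 in radiation and *amh* at 5.94 in torpor+radiation and 0.188 in radiation. *amh*, with a baseMean of 2.43, was below the level tested, and the standard error of its log2 fold change was 2.25. Of the 2 tested genes of the oocyte list 0 were called, with 1 at an unadjusted p under 0.05. The liver list summed to 5857 in torpor+radiation and 5712 in radiation with *rbp4*, and to 39.1 in torpor+radiation and 76.7 in radiation without it. Of the 3 calls, 0 were left with the t distribution, under which 3 of the 6504 genes were called and these 3 genes kept an unadjusted p under 0.05.

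**Figure D4:**
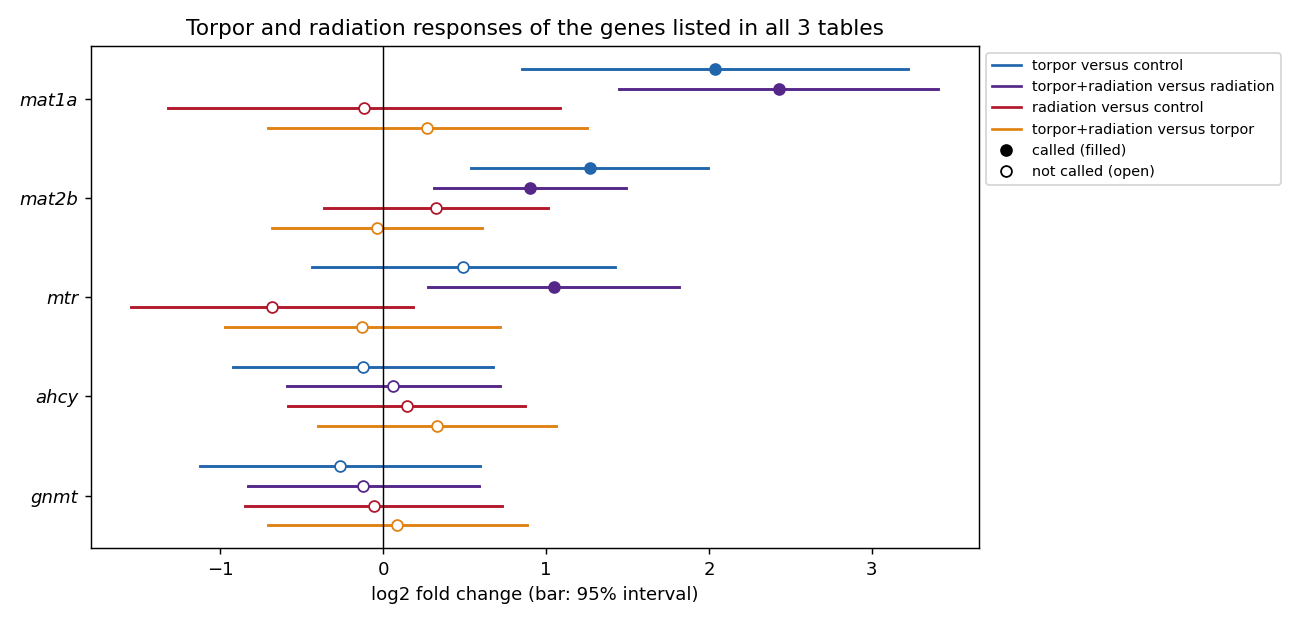
Log2 fold changes with 95% intervals (horizontal axis) of the 5 genes listed in all 3 tables, for torpor at both radiation levels and for radiation at both temperatures. Filled points were called. Calls fall on the torpor lines of *mat1a* and *mat2b* and on 1 torpor line of *mtr*, and every radiation line includes 0.

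Against the control, torpor+radiation had 2 of 5 genes called higher, *mat1a* and *mat2b*, and 0 lower, where 15.5% of 6908 genes were called, 9.09% higher and 6.43% lower. Radiation called 0 of 5 at the study's threshold of 0.4 by DESeq2, with 0 of 5 at an unadjusted p under 0.05, where 1.96% of 7616 genes were called, 0.657% higher and 1.30% lower. The radiation log2 fold changes were -0.12 for *mat1a* (95% interval -1.32 to 1.08), 0.33 for *mat2b* (-0.36 to 1.01), 0.14 for *ahcy* (-0.59 to 0.87) and -0.06 for *gnmt* (-0.85 to 0.73), beside -0.68 for *mtr* (-1.55 to 0.18). In the cold, torpor+radiation over torpor gave 0.27 for *mat1a*, -0.04 for *mat2b*, 0.33 for *ahcy*, 0.09 for *gnmt* and -0.13 for *mtr*. There too 0 of 5 passed the Wald test and 0 had an unadjusted p under 0.05, where 0.215% of 6504 genes were called.

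Whether the torpor response differed with radiation was tested by the radiation by torpor interaction, the torpor response of irradiated fish less that of unirradiated fish. It was 0.55 for *mtr* (SE 0.62, 95% interval -0.66 to 1.76), 0.39 for *mat1a* (SE 0.79) and -0.37 for *mat2b* (SE 0.48). For *ahcy* it was 0.19 and for *gnmt* 0.14. By the Wald test 0 of 5 passed, and at an unadjusted p under 0.05 there were also 0, where 0.461% of 6504 genes were called. The call of *mtr* against radiation and its absence against the control are therefore not shown to be different responses.

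The neighbouring reactions were read from 5 lists of genes, whose counts stand beside 11.0% of all genes called in torpor against control (6.14% higher and 4.82% lower) and whose medians stand beside -0.0044 over all genes. Of 23 genes found for remethylation and folate, 19 were tested in torpor against control, 3 were higher and 1 was lower, with a median log2 fold change of 0.10 over the 16 with a baseMean of at least 10. *mmadhc*, whose product handles cobalamin for methionine synthase, was higher by 1.13 in torpor (SE 0.30, adjusted p = 0.0050, DESeq2).

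The 2 forms of 10-formyltetrahydrofolate dehydrogenase moved in opposite directions. *aldh1l2*, the mitochondrial form, had 61.6 normalized counts in torpor+radiation, 70.8 in torpor, 21.2 in radiation and 13.3 in the control. *aldh1l1*, the cytosolic form, had 47.5 in torpor+radiation, 65.4 in torpor, 215 in radiation and 208 in the control. Their log2 fold changes in torpor over control were 2.42 (SE 0.78, adjusted p = 0.031, DESeq2) and -1.67 (SE 0.49, adjusted p = 0.016, DESeq2). Both were called in the same directions in torpor+radiation over radiation. *shmt1*, the cytosolic serine hydroxymethyltransferase, was higher by 1.20 in torpor (adjusted p = 0.097, DESeq2). *bhmt*, the betaine-dependent route from homocysteine to methionine, lay at -0.45 (95% interval -1.25 to 0.35) without a call. Its baseMean was 2400, beside 116 for *mtr*.

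Among 26 genes of SAM use and polyamine synthesis, all tested in torpor, 6 were higher and 1 was lower, where 6.14% of all genes were called higher and 4.82% lower. The median log2 fold change was 0.38 over 24 genes, beside -0.0044 over all genes. In torpor+radiation over radiation the median was -0.014 over 13 one-to-one genes, 6 higher and 7 lower, beside 0.058 over all genes. There 3 of the 13 were called higher and 0 lower. *pemt*, which methylates phosphatidylethanolamine to phosphatidylcholine, had 84.4 normalized counts in torpor+radiation, 98.5 in torpor, 20.4 in radiation and 21.4 in the control, a log2 fold change of 2.203 in torpor over control (SE 0.49, adjusted p = 4.9e-04, DESeq2). *prmt1*, the main protein arginine methyltransferase of mammals, was higher by 1.23 (SE 0.37, adjusted p = 0.018, DESeq2). *sms*, spermine synthase, had 922 in torpor+radiation, 760 in torpor, 256 in radiation and 241 in the control. Its log2 fold change in torpor over control was 1.66 (SE 0.32, adjusted p = 3.8e-05, DESeq2).

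Genes that restrain polyamines were called as well. *oaz1b* and *oaz2b*, which encode antizymes of ornithine decarboxylase, were higher in torpor by log2 fold changes of 1.62 and 4.02, and *sat1a.2*, a spermidine/spermine acetyltransferase gene, by 1.71. Their standard errors were 0.26, 0.82 and 0.36, in this order (adjusted p = 9.5e-08, 8.5e-05 and 2.0e-04, DESeq2). All were read in torpor over control only, without the irradiated groups, as were *mmadhc*, *mtap*, *slc3a2b* and *slc7a8a*. *odc1*, the gene of ornithine decarboxylase itself, had 30.2 normalized counts in torpor+radiation, 7.62 in torpor, 57.5 in radiation and 52.9 in the control. It was lower in torpor over control by a log2 fold change of -2.80 (SE 0.75, adjusted p = 0.0063, DESeq2), while torpor+radiation over radiation gave -0.93 (SE 0.56, adjusted p = 0.31, Wald test across all genes). *odc1* was thus called in the unirradiated pair and not in the irradiated one, and its interaction of 1.87 (SE 0.94) did not pass the test.

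**Figure D5:**
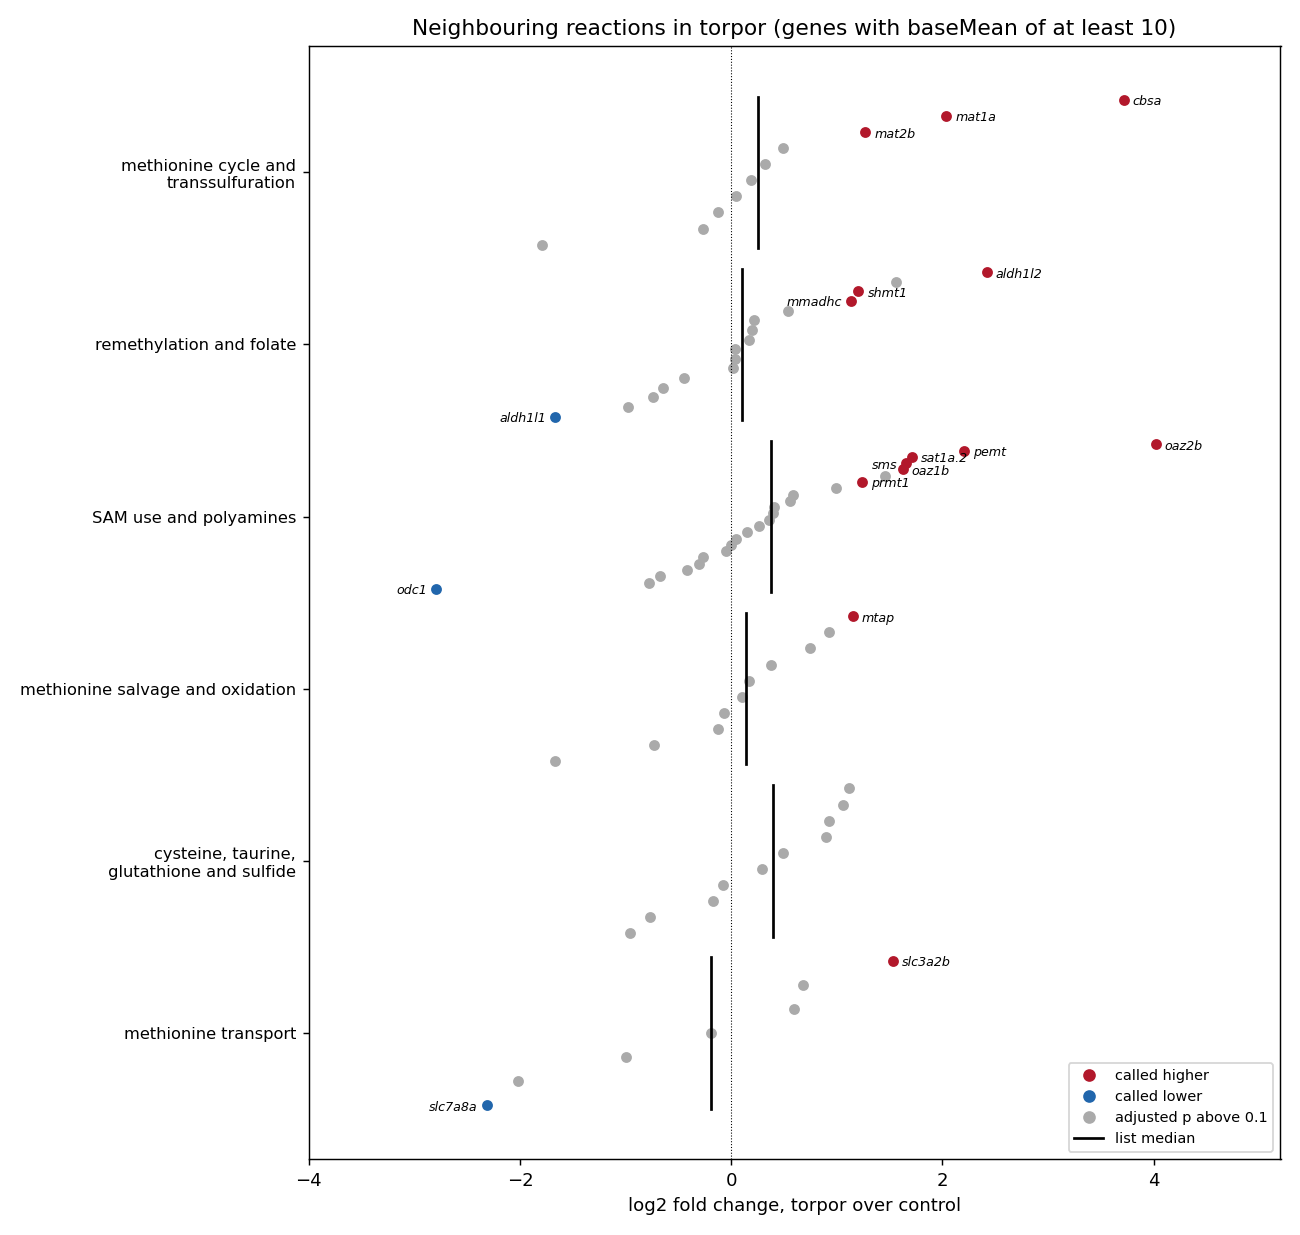
Log2 fold change in torpor over control (horizontal axis) of the genes with a baseMean of at least 10, in rows for the 10 enzyme genes and the 5 lists of neighbouring reactions. Coloured and named points were called, grey points were not, and black bars are list medians, which lie between -0.19 and 0.39.

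Of 11 genes of methionine salvage and oxidation, 1 was called, *mtap*, the phosphorylase that starts the salvage of methylthioadenosine, at 1.15 (SE 0.40, adjusted p = 0.053, DESeq2). Downstream of cysteine, 0 of 11 tested genes were called in torpor by DESeq2, with 3 of them at an unadjusted p under 0.05. The list median was 0.39 in torpor over control. Over the 6 one-to-one genes with a baseMean of at least 10, it was 0.91 in torpor+radiation over control and 0.45 in radiation over control. In torpor+radiation over radiation it was 0.064, close to the 0.058 of all genes. In torpor over control, *gclm* and *chac1*, of glutathione synthesis and breakdown, had log2 fold changes of 0.92 (95% interval 0.07 to 1.78) and 1.06 (95% interval 0.09 to 2.03). For *cdo1*, which oxidises cysteine on the way to taurine, it was 0.49 (95% interval -0.70 to 1.68). In the transport list, 1 of 8 tested genes was higher and 1 lower. These were *slc3a2b*, the heavy chain of several amino acid exchangers, at 1.53 (SE 0.41), and *slc7a8a*, a light chain, at -2.31 (SE 0.47).

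Of the enzyme genes listed in all tables, *mat2b* had the smallest p in torpor. The genes most like *mat2b* were sought by Euclidean distance over the 3 log2 fold changes among 4125 genes with a baseMean of at least 50. The nearest were *mrps34*, *clpp*, *dcaf5*, *mrpl17* and *eny2*, at distances of 0.11 to 0.15. *mrps34* had a recovered mean of 502 normalized counts in torpor+radiation, 464 in torpor, 256 in radiation and 201 in the control. *mrps34* and *mrpl17* encode proteins of the mitochondrial ribosome and *clpp* a protease of the mitochondrial matrix. The share of mitochondrial genes among those searched was not counted. The distances lie below the standard errors of the fold changes of *mat2b* (0.34 to 0.37), so which genes rank nearest is not settled. The likeness rests on 4 groups only, and all 3 fold changes share the control.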

How the data were processed

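Total RNA of zebrafish muscle was sequenced as poly(A) libraries with stranded paired-end reads. Per the labels and the paper's methods, the authors used FastQC, cutadapt, STAR with the GRCz11 genome, HTSeq and DESeq2, comparing each treated group with the control, and appended human orthologues. Versions are not given in the sources used here. The deposited signal is baseMean, the mean of normalized counts over all fish. The deposited log2 values were taken as unshrunken fold changes with standard errors, and the recovered means rest on this. The deposited score, the Wald statistic, equals their ratio, which alone does not settle it. The Wald test also gave the deposited p-value, listed raw and after Benjamini-Hochberg adjustment. No values per fish were used, so depth per library is unknown here.

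Rows repeated for several human orthologues were reduced to 1 per gene. The 3 fold changes, baseMean and the numbers of fish were solved for the group means, and the standard errors for the dispersion, with a negative binomial variance. Recalculated standard errors were 0.996, 1.00 and 0.999 times the deposited ones (radiation, torpor, torpor+radiation) as medians. The dispersion was solved from these same deposited errors, so this closeness is largely built in. Contrasts without the control were tested by a Wald test, adjusted over genes with a baseMean of at least 10. The recovery was also run on simulated data built with the same formulas, which checks the arithmetic only and cannot test whether those formulas hold for these fish. As a check of the table labels, the ratio of radiation to torpor errors was 0.913 over 389 well expressed genes (baseMean 1000 or more), where the numbers of fish give 0.913. The enzyme genes, the lists, the tests and the thresholds (0.1, and 0.4 for radiation) were chosen with earlier results of these data known. Neighbouring genes were named if called in torpor against control or in torpor+radiation against control or radiation, at most 15 by p, and *bhmt*, *gclm*, *chac1* and *cdo1* were added after their values were seen. A gene of the folate list is not reported here and was left out of its counts. No coordinates or sequences are given, because the annotation used for names is of another build. Alternatives were another reference distribution, centring on the median gene, other filters and thresholds and another dispersion estimate. Analyses used Python 3.11.15, numpy 2.4.6, pandas 2.3.3 and scipy 1.17.1.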

Additional observations from a re-analysis of the deposited data

Results flagged for a closer look

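Among the enzyme genes and their neighbours, no interaction passed the test, which does not show that radiation responses were equal at both temperatures. At an unadjusted p under 0.05 by the Wald test were 2 of 11 tested genes of remethylation and folate. For SAM use and polyamines it was 1 of 13. Among the marker genes, the interaction of 2 passed. *h1m*, a linker histone gene of oocytes, had an interaction of 4.004 on the log2 scale (SE 0.90, adjusted p = 0.0073 Wald test over all genes), with recovered means of 3.48 normalized counts in torpor+radiation, 6.39 in torpor, 8.83 in radiation and 260 in the control. *tcap*, a Z-disc gene of muscle, had an interaction of -2.31 (SE 0.65, adjusted p = 0.089 from the same test), with 4071 normalized counts in torpor+radiation, 4717 in torpor, 5473 in radiation and 1282 in the control. In both genes the control is the group that stands apart.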

How the results depend on the processing

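The enzyme genes called with a t distribution with 6 degrees of freedom numbered 0 in torpor against control, 0 in torpor+radiation against control and 0 in torpor+radiation against radiation, in place of 3, 2 and 3 with the normal distribution. Adjusted p-values of these 8 calls under that setting were 0.17 to 0.35. With adjustment over genes with a baseMean of at least 50, the calls in torpor and in torpor+radiation against control were 1 and 1, because *mat1a* and *cbsa* lie below that level. At a threshold of 0.05, *mtr* was no longer called in torpor+radiation against radiation (1.05, adjusted p = 0.061, and 0.048 to 0.29 over all alternatives). Centring on the median gene turned the sign of *mat2aa* in torpor, to -0.016, a value that was not called. The 33 other recalculated counts of called genes stayed within 1.5 times those reported, or at 0 where 0 was reported. They include the deposited p-values adjusted again over the listed genes, an alternative chosen after seeing the data. Counts of 0 in radiation over control, in torpor+radiation over torpor and in the interaction could not be lowered by a stricter setting. A fall from 3 to 2 also counted as within 1.5 times. One such fall was the loss of *mat1a* in torpor+radiation over radiation with adjustment over genes with a baseMean of at least 50. The median gene with a baseMean of at least 50 lay at 0.15 in torpor+radiation over control and 0.11 in radiation over control on the log2 scale. Recovered means moved by at most 2.3% with equal weights of the groups. No paired analysis was possible because the tables carry no values per fish, and for the same reason no fish could be left out.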

Other observations

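Glycine N-methyltransferase makes sarcosine, and 2 genes of sarcosine oxidation, noticed after the values were seen, had their lowest mean in the radiation group, as *mtr* did. *sardh*, sarcosine dehydrogenase of mitochondria, had 64.6 recovered normalized counts in torpor+radiation, 51.4 in torpor, 20.8 in radiation and 44.8 in the control. *pipox*, a peroxisomal enzyme that oxidises sarcosine and pipecolate, had 30.6 in torpor+radiation, 18.9 in torpor, 5.67 in radiation and 18.4 in the control. In torpor+radiation over radiation, *sardh* was higher by a log2 fold change of 1.64 (SE 0.45, adjusted p = 0.0049 Wald test over all genes) and *pipox* by 2.43 (SE 0.67, adjusted p = 0.0060 from the same test). In radiation over control, *sardh* lay at -1.11 (SE 0.50, adjusted p = 0.63, DESeq2) and *pipox* at -1.70 (SE 0.76, adjusted p = 0.61, DESeq2), so that neither passed. The radiation by torpor interaction of neither gene passed the test. *dmgdh*, the neighbouring dimethylglycine dehydrogenase, did not share this order, with 281 in torpor+radiation, 222 in torpor, 340 in radiation and 348 in the control.

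The amino acid transporter gene *slc38a2* had 5868 recovered normalized counts in torpor+radiation, 4247 in torpor, 3132 in radiation and 2820 in the control. It was called higher in torpor+radiation over control (log2 fold change 1.06, SE 0.30, adjusted p = 0.0085, DESeq2) and over radiation (0.91, SE 0.27, adjusted p = 0.011, Wald test across all genes), while torpor over control gave 0.59 (SE 0.33, adjusted p = 0.30, DESeq2). The interaction of *slc38a2* was 0.31 and did not pass the test, so its torpor responses with and without radiation are not shown to differ.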
